A study of Mus musculus with 6 samples.

Results

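Acod1, the enzyme that makes itaconate, and 8 enzymes of the tricarboxylic acid (TCA) cycle, Cs, Idh2, Idh3a, Ogdh, Sdha, Sdhb, Fh1 and Mdh2, were followed in the RNA of microglia after co-culture with neutrophils. They are 9 of the 55335 gene identifiers measured. The 9 genes were chosen by function with their values in this comparison already known, selected on the difference between microglia that met Cd177 KO and Cd177 WT neutrophils. Their levels and differences are therefore given as a description, with no p-value. The microglia were C57BL/6, of WT genotype in every library, prepared from the brains of newborn mice and shaken off the culture on day 14. The neutrophils were isolated with magnetic beads from the lesion of the spinal cord at 3 dpi (days post-injury), from adult male mice that carried Cd177 (WT) or lacked it (KO), and the cells were kept together for 24 h. Microglia were then collected by flow sorting as cells negative for Ly6G, a neutrophil surface protein. The 3 libraries that followed co-culture with WT neutrophils are called the WT arm, and the 3 that followed KO neutrophils the KO arm, although the microglia themselves did not differ in genotype. No microglia cultured alone are among the libraries, so the comparison sets 1 kind of neutrophil against the other. Separate cultures for the 3 libraries of each arm are not stated in the labels, so p-values measure only the spread between these libraries.

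The TCA cycle, in the matrix of mitochondria, joins acetyl-CoA to oxaloacetate as citrate and oxidises it step by step, passing electrons to the respiratory chain. Acod1 (also known as Irg1) branches off near the top of the cycle: it removes carbon dioxide from cis-aconitate, an intermediate on the way from citrate to isocitrate, and releases itaconate. In macrophages and microglia the gene is nearly silent at rest and is strongly induced by bacterial products and interferons. Itaconate inhibits succinate dehydrogenase, the enzyme built from Sdha, Sdhb, Sdhc and Sdhd, and it modifies proteins such as Keap1, the inhibitor of the transcription factor Nrf2. Levels below are mRNA levels, and neither enzyme activity nor metabolites were measured.

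Levels are in FPKM (fragment counts divided by transcript length and by the number of mapped fragments), which allows levels of different genes to be set side by side. Differences are KO minus WT on the scale of log2(FPKM + 1), with their standard error (SE), from a limma fit over the 11395 genes whose mean reached 1 FPKM, and all 9 genes passed this filter. For genes other than the 9, a gene with a Benjamini-Hochberg adjusted p under 0.05 in that fit is said to have risen or fallen. By this rule 43.3% of all genes tested were called, 24.5% higher and 18.8% lower in the KO arm. Of the calls 56.6% were higher, and 45% were higher once each library was rescaled to the same sum. The unscaled sums of FPKM lay between 314084.9 and 315632.4 for WT and between 323588.4 and 326868.0 for KO libraries. In bulk RNA, fewer cells of a type and less RNA per cell cannot be told apart.

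The cell type was checked against marker genes. All 10 markers shared by macrophages and microglia had a mean of at least 1 FPKM, with summed levels of 2842.4 to 2900.5 FPKM with WT neutrophils and 3030.3 to 3061.1 with KO neutrophils. Single markers differed more than the sum, with 5 of the 10 past the threshold and higher in the KO arm and 2 lower, among them Laptm5 at 44.9 to 46.4 FPKM against 80.3 to 86.5 and Cd14, described below. Of 15 microglia markers 4 had a mean of at least 1 FPKM, namely Csf1r, Trem2, Itgam and Cx3cr1. Of these 2 were past the threshold and higher in the KO arm and 1 lower. Trem2 lay at 11.2 to 13.2 FPKM against 27.5 to 28.2 and Cx3cr1 at 2.41 to 2.98 against 0.956 to 1.43. P2ry12 and Tmem119 stayed under 1 FPKM in every library, as did Aif1, C1qb, C1qc, Siglech, Gpr34 and Olfml3. Sall1, Fcrls and C1qa were listed at 0 in all 6. Aif1 lay at 0.111 to 0.183 FPKM in the WT arm and at 0.13 to 0.282 in the KO arm. The markers thus showed cells of the macrophage lineage but did not identify them as microglia, a name taken from the study. Among 20 neutrophil markers 9 were listed at 0 throughout, including Ly6g, S100a9, Mpo and Elane. The sum over the neutrophil markers was 118 to 122 FPKM with WT neutrophils and 1.73 to 2.66 with KO neutrophils, and in the WT arm almost all of it was Lcn2, a gene that activated macrophages also express, while Mmp9 was the largest contributor in the KO arm. Astrocyte, oligodendrocyte and neuron markers each summed to under 1 FPKM in every library. Cd177 itself was at 0.477, 0.113 and 0.151 FPKM in the WT arm and at 0.109, 0.0217 and 0.0845 in the KO arm, a difference of -0.175 FPKM with an exact two-sided permutation p of 0.1, the smallest that 3 against 3 libraries allow. These levels lie below the filter, so they show little about the deleted gene, which was removed from the neutrophils and not from the sequenced cells.

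Acod1 (ENSMUSG00000022126, GRCm38 chr14:103046977-103056573, plus strand) was high in microglia that had met WT neutrophils and low in those that had met KO neutrophils. Its level was 352, 356 and 355 FPKM in the 3 WT libraries and 13.2, 13.8 and 12.9 FPKM in the 3 KO libraries. The arms were far apart and the libraries within each lay close together. The mean level was 26.6 times as high in the WT arm, 354 ± 2.08 against 13.3 ± 0.443 FPKM (SD, n = 3 each), and the fitted log2 difference was -4.63 (SE 0.028). Only 5 of the 11395 genes tested had a more negative fitted difference. Among the same genes Acod1 ranked 99th by mean level in the WT arm and 3784th in the KO arm. The KO arm thus still held Acod1 mRNA at a level above that of 66.8% of the genes tested. As a share of all FPKM, Acod1 made up 0.112% to 0.113% with WT neutrophils and 0.00395% to 0.00426% with KO neutrophils. Of the 20 neutrophil markers 5 had every KO library below every WT library, namely Lcn2, Mmp9, S100a8, Camp and Csf3r. Only 2 of the 20, Lcn2 and Mmp9, passed the filter, and both fell. A further 9 were at 0 in every library and could not separate. The share of all genes tested with this separation, 24.6%, covers only genes past the filter, so it cannot be set beside the 20. Lcn2 lay at 109 to 113 FPKM in the WT arm and Mmp9 at 7.08 to 7.21, while S100a8, Camp and Csf3r stayed under 1 FPKM in every library, at means of 0.405, 0.285 and 0.621 in the WT arm and 0.11, 0.0902 and 0.302 in the KO arm. Ly6g, S100a9, Mpo and Elane were at 0 in every library, and what part neutrophil RNA had in the Acod1 difference was not tested.

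**Figure D1:**
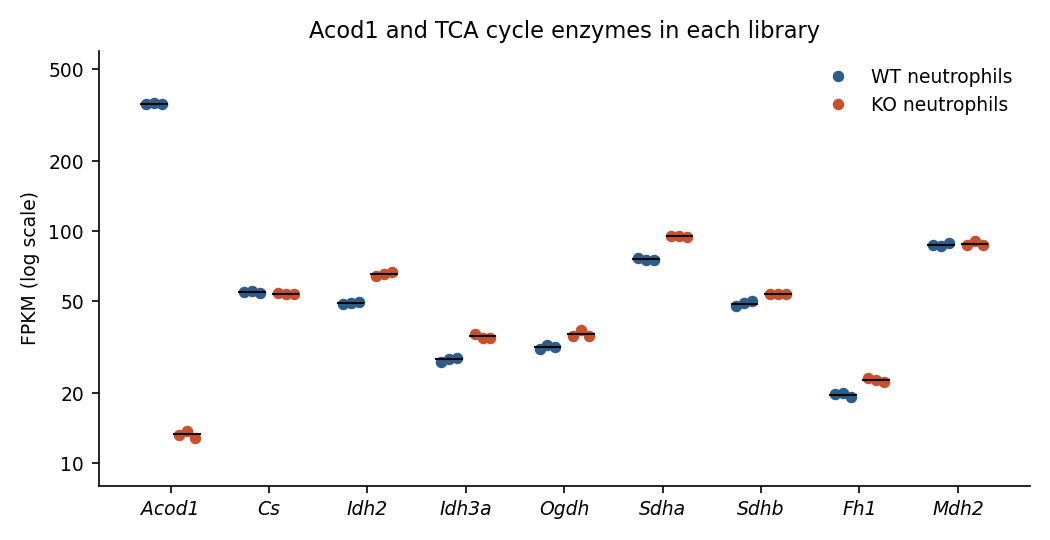
FPKM on a log scale for Acod1 and 8 TCA cycle enzymes, 1 point per library and a line at the mean of each arm of 3. Acod1 lies at 352 to 356 FPKM with WT neutrophils and 12.9 to 13.8 with KO neutrophils, while the cycle enzymes differ by far less and Cs and Mdh2 overlap between arms.

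The stretch before the start of Acod1 is shown beside that of Sdha, the flavoprotein subunit of succinate dehydrogenase, as the member that differed most in one direction and a cycle enzyme that differed in the other. Each line holds the 250 bases upstream of the RefSeq start of the gene (GRCm38.p6), at chr14:103046762-103047011 on the plus strand for Acod1 and at chr13:74350241-74350490 on the minus strand for Sdha. Capitals mark every match to the motifs searched. GENCODE M21 places the start of both genes inside the printed stretch.
Acod1: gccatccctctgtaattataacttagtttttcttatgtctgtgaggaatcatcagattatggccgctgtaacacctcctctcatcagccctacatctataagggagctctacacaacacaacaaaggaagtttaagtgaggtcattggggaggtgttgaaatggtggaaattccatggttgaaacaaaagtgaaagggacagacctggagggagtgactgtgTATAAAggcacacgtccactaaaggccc
Sdha: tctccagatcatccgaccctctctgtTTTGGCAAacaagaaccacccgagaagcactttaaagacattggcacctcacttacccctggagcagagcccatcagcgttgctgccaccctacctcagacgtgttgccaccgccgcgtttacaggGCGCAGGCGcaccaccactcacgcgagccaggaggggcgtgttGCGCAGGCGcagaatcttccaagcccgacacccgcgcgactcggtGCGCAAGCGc
Exact matches on both strands were sought for NF-kB (GGGNNTTTC), IRF (GAAANNGAA), AP-1 (TGANTCA), CRE (TGACGTCA), C/EBP (TTGCNNAA), TATA box (TATAAA), NRF1 (GCGCANGCG) and GABP (CCGGAAGT), and no match overlapped another in either stretch. The Acod1 stretch held a TATA box at -28 to -23 from the RefSeq start, letters found in 12.4% of 32851 mouse promoter stretches of the same length, and none of the other motifs. The Sdha stretch held the NRF1 letters at -98 to -90, at -55 to -47 and at -10 to -2, letters present in 5.16% of all stretches, and the C/EBP letters at -224 to -217, present in 9.56%. By the GENCODE M21 starts, the TATA letters of Acod1 and the last NRF1 letters of Sdha lie inside the gene. Of the 9 genes 8 had an entry. Sdhb held the NF-kB letters at -159 to -151 (3.72% of all stretches) and Mdh2 the CRE letters at -127 to -120 (1.55%), while the first entry of Ogdh held the CRE letters at -51 to -44. Ogdh had 6 entries, of which entries 2 and 3 also held the CRE letters. Its entry 4 held no motif, and entries 5 and 6 held the C/EBP and NRF1 letters instead. Cs, Idh2 and Fh1 held none of the 8 motifs, although Idh2, and not Sdha, was the member with the largest difference in the higher direction. Among 8 other cycle enzymes with an entry, Sdhd and Sucla2 held the NRF1 letters, Dld the C/EBP letters, and Suclg1 and Suclg2 the IRF letters, which 7.13% of all stretches hold. A match is a description of letters and does not show that a factor binds.

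Of the genes tested, 5 had a profile across the 6 libraries closest to that of Acod1, measured as the root mean square distance between log2(FPKM + 1) values centred on the mean of each gene. They were Ccl2, a chemokine for monocytes, at a distance of 0.04, Ptgs2, the inducible cyclooxygenase, at 0.24, Nos2, the inducible nitric oxide synthase, at 0.24, Il6 at 0.27 and Il1a at 0.29. With 2 arms set far apart, Pearson's r for these genes was 0.9996 to 0.9999 over the 6 libraries and reflects mainly the distance between the arms. Ccl2 lay at 1148.6, 1178.6 and 1178.7 FPKM in the WT arm and at 49.6, 49.1 and 45.4 in the KO arm, a ratio of 24.3 close to that of Acod1. Nos2 and Il6 were near 0 in the KO arm, at 0.124 to 0.153 and 0.0423 to 0.171 FPKM, where Acod1 was not.

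At the entry to the cycle the difference was small. Cs, citrate synthase, which makes the citrate upstream of cis-aconitate, was at 54.6, 55.3 and 53.9 FPKM in the WT arm and at 54.4, 53.4 and 53.8 in the KO arm. The arms overlapped, with a log2 difference of -0.02 (SE 0.022) that came to -0.07 after rescaling to a common sum. Cs has near copies, Csl and the pseudogene Gm48254, at 91.9% and 92.1% identity over aligned stretches, but neither exceeded 0.23 FPKM.

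The isocitrate dehydrogenases carry isocitrate onward to 2-oxoglutarate. Idh2, the mitochondrial NADP-linked form, was at 48.8, 49.1 and 49.6 FPKM in the WT arm and at 64.2, 65.1 and 67.0 in the KO arm. Every KO library lay above every WT library, with a log2 difference of 0.40 (SE 0.025), the highest among the 9 genes. Idh3a, the catalytic subunit of the NAD-linked enzyme, was at 27.4, 28.2 and 28.4 FPKM against 36.2, 34.6 and 34.8, a log2 difference of 0.32 (SE 0.03). Its partner subunits were not members. Idh3g was at 31.4, 35.6 and 33.6 FPKM against 37.8, 38.5 and 38.8 and rose by 0.19 (SE 0.047, adjusted p = 0.0178 by limma). That call was lost without KO replicate 2 (0.19) or KO replicate 3 (0.18). Idh3b was at 48.4, 48.2 and 47.8 FPKM against 49.6, 50.5 and 48.9, with a difference of 0.04 (SE 0.023, adjusted p = 0.167) that turned to -0.01 on the common sum. The subunits thus differed by unlike amounts, and the ratio of Idh3a to Idh3b within a library was 0.566 to 0.595 with WT neutrophils and 0.685 to 0.729 with KO neutrophils.

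The 2-oxoglutarate dehydrogenase complex moved in both directions. Ogdh, its first component, was at 31.2, 32.4 and 31.8 FPKM in the WT arm and at 35.3, 37.4 and 35.2 in the KO arm, a log2 difference of 0.17 (SE 0.033) with no overlap. Dlst, the succinyltransferase core of the complex, was at 17.3, 16.7 and 17.4 FPKM in the WT arm and at 13.4, 13.6 and 12.8 in the KO arm. It fell by 0.35 on the log2 scale (SE 0.036, adjusted p = 0.000531 by limma). Dlst was the only one of the 9 cycle enzymes outside the members to pass the threshold in this direction. The ratio of Ogdh to Dlst within a library was 1.80 to 1.95 with WT neutrophils and 2.63 to 2.76 with KO neutrophils. Dld, the third component, which other dehydrogenase complexes share, was at 148 to 153 FPKM with WT neutrophils and 149 to 151 with KO neutrophils, with overlapping arms (adjusted p = 0.947).

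Succinyl-CoA ligase joins the release of coenzyme A to the making of ATP or GTP. Suclg1, the subunit common to both forms, was at 17, 16.7 and 15.2 FPKM in the WT arm and at 18.4, 18.9 and 19.3 in the KO arm, and rose by 0.20 (SE 0.048, adjusted p = 0.0176 by limma). This call was lost with a replicate block (0.20), without KO replicate 2 (0.20) and without KO replicate 3 (0.18). Sucla2, the ATP-forming subunit, lay at 12.8 to 14.1 FPKM against 13.7 to 14.5 (adjusted p = 0.326). Suclg2, the GTP-forming subunit, was at 21, 13 and 11.7 FPKM against 24.3, 15.6 and 15.7, and replicate 1 was the high library in each arm. Its difference of 0.28 (SE 0.25, adjusted p = 0.411) passed the threshold only with the replicate number as a block, and it ranged from 0.08 to 0.52 when one library was left out. A pseudogene of Suclg2, Gm15163, is 98.9% identical over 1302 bases and reached 3.57 FPKM, so the level of Suclg2 is uncertain.

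Succinate dehydrogenase, the target of itaconate and complex II of the respiratory chain, was higher in the KO arm in all 4 of its subunits. Sdha was at 76.7, 74.8 and 75.4 FPKM in the WT arm and at 95.6, 95.5 and 94.2 in the KO arm, a log2 difference of 0.33 (SE 0.02). Sdhb, the iron-sulphur subunit, was at 47.6, 49.0 and 49.8 FPKM against 53.8, 53.7 and 53.8, a log2 difference of 0.14 (SE 0.024) that came to 0.09 on the common sum. Both membrane anchor subunits, which were not members, differed more. Sdhc was at 25.5, 25.4 and 24.8 FPKM against 38.0, 35.6 and 38.3 and rose by 0.54 (SE 0.035, adjusted p = 6.36e-05 by limma), the highest difference among the 17 cycle enzymes. Sdhd was at 118, 111 and 116 FPKM against 158, 151 and 156 and rose by 0.43 (SE 0.029, adjusted p = 8.21e-05 by limma). The subunits sit in the complex in equal number, but their mRNAs did not change in step: Sdhc to Sdhb was 0.498 to 0.536 with WT neutrophils and 0.663 to 0.712 with KO neutrophils, and Sdha to Sdhb was 1.51 to 1.61 against 1.75 to 1.78.

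The last steps return succinate carbon to oxaloacetate. Fh1, fumarase, had the lowest WT level of the 9 genes, with 19.9, 20.1 and 19.2 FPKM, and lay at 23.3, 22.9 and 22.5 in the KO arm. Its log2 difference was 0.20 (SE 0.031), with no overlap. Mdh2, mitochondrial malate dehydrogenase, was at 87.1, 86.8 and 89.0 FPKM against 87.4, 90.5 and 87.5. The arms overlapped, and the difference of 0.01 (SE 0.023) became -0.04 on the common sum.

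Of the 9 genes, 6 were past the threshold and higher in the KO arm, against 24.5% of all genes tested, and Acod1 was past it and lower, against 18.8%. The same 6 had every KO library above every WT library, which held for 31.3% of all genes, and Acod1 had every KO library below every WT library, which held for 24.6%. Since this contrast chose the genes, nothing is read from these counts. Among 9 further cycle enzymes that were not members, 4 rose (Sdhc, Sdhd, Suclg1 and Idh3g), 1 fell (Dlst) and 4 did not pass, with a median log2 difference of 0.19 against 0.02 over all genes. Without KO replicate 2, or without KO replicate 3, 3 of these were called in place of 5. Mitochondrially encoded transcripts also differed between the arms, at 11.1% to 11.3% of summed FPKM with WT neutrophils and 14.3% to 14.6% with KO neutrophils, and their part in the cycle result was not tested.

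**Figure D2:**
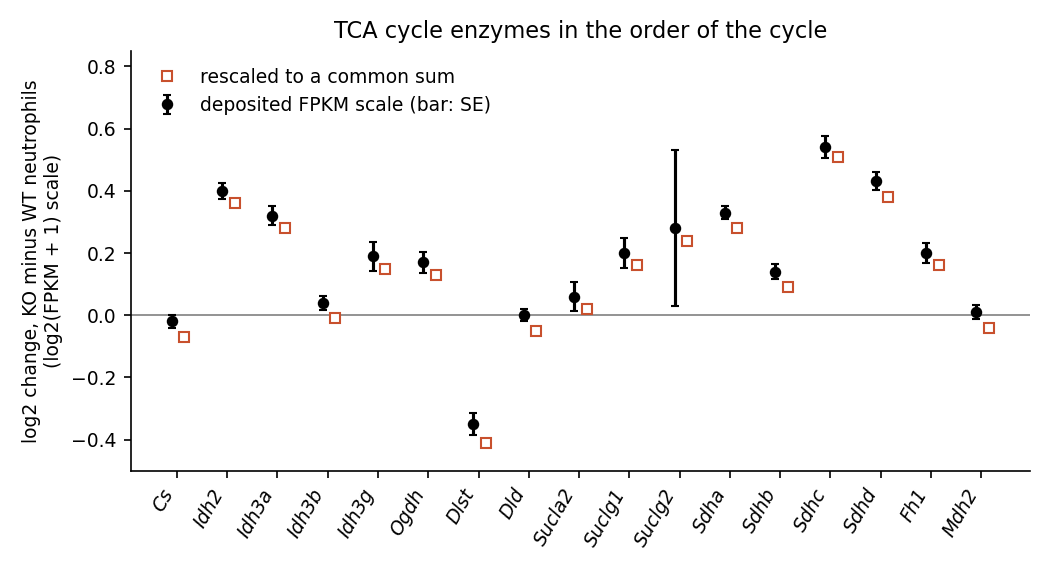
Log2 difference, KO minus WT neutrophils, for 17 TCA cycle enzymes in the order of the cycle. Black points are the deposited FPKM scale with SE bars, and open squares show the same fit after each library was rescaled to a common sum. Sdhc is highest at 0.54, Dlst is lowest at -0.35, and Cs, Dld and Mdh2 lie near 0.

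Set against Acod1, the cycle enzymes were nearly level. The 8 member enzymes together summed to 393, 396 and 397 FPKM in the WT arm and to 450, 453 and 449 FPKM in the KO arm, and the 17 cycle enzymes to 825 to 836 and 941 to 955. In the WT arm Acod1 alone therefore stood at 0.895 to 0.900 of the 8 enzymes combined, and in the KO arm at 0.0288 to 0.0305. The ratio of Acod1 to Cs was 6.45, 6.44 and 6.59 in the WT libraries and 0.243, 0.259 and 0.24 in the KO libraries. Acod1 mRNA thus exceeded that of citrate synthase in every WT library and was below it in every KO library. The ratio to Idh3a, which draws on the same carbon further along, was 12.5 to 12.9 with WT neutrophils and 0.366 to 0.399 with KO neutrophils. These ratios are taken within a library and do not depend on how libraries are scaled.

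**Figure D3:**
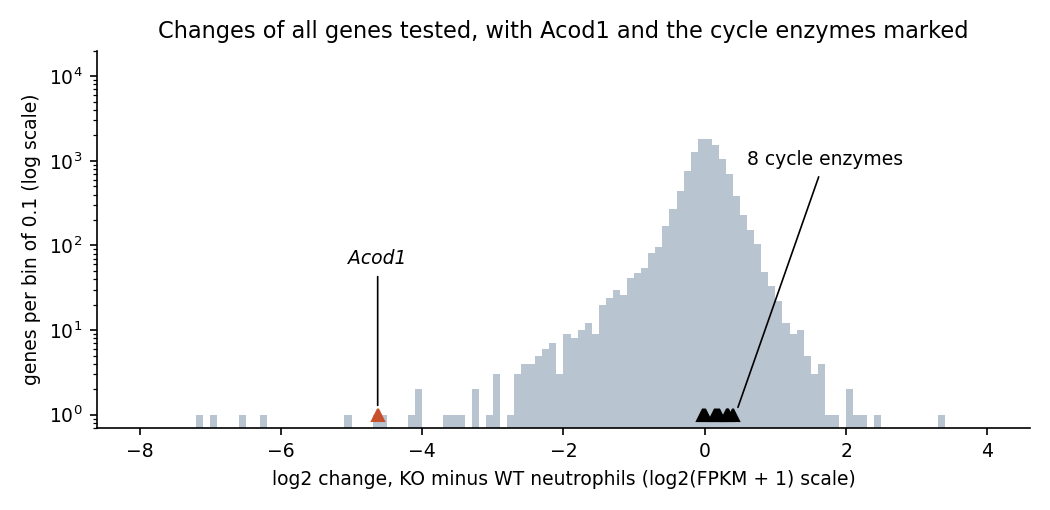
Number of genes in each bin of the fitted log2 difference, KO minus WT neutrophils, for the 11395 genes tested, on a log count axis. The red triangle marks Acod1 at -4.63, in the sparse left tail, and the black triangles mark the 8 cycle enzymes, between -0.02 and 0.40 within the body of the distribution.

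Enzymes that share substrates with the cycle from outside it were also measured. Of 13 tested, 6 rose, 1 fell and 6 did not pass, with a median log2 difference of 0.12, where 24.5% of all genes tested rose and 18.8% fell. Idh1, the cytosolic counterpart of Idh2, was at 15.6, 15.7 and 16.5 FPKM in the WT arm and at 40.1, 39.6 and 41.1 in the KO arm, and rose by 1.28 (SE 0.033, adjusted p = 1.39e-06 by limma). The fitted difference was larger for the cytosolic form, and the ratio of Idh2 to Idh1 was 3.00 to 3.13 with WT neutrophils and 1.60 to 1.64 with KO neutrophils. Acly, which splits citrate in the cytosol, rose by 0.36 (SE 0.029) and Aco1, which turns citrate into isocitrate in the cytosol, by 0.29 (SE 0.053), with adjusted p of 0.000186 and 0.00558 by limma. The 1 gene that fell was Me1, cytosolic malic enzyme, at 44.0, 44.3 and 44.1 FPKM against 36.3, 35.3 and 36.1, a difference of -0.29 (SE 0.023).

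The carriers that move cycle intermediates across the inner mitochondrial membrane were counted next. Of 6 tested, 5 rose and 0 fell (0 also at an unadjusted p under 0.05 by limma), with a median of 0.27. Over all genes tested 24.5% rose and 18.8% fell. Slc25a10, the dicarboxylate carrier, was at 3.36, 4.11 and 3.09 FPKM in the WT arm and at 5.58, 6.19 and 5.58 in the KO arm, and rose by 0.59 (SE 0.092, adjusted p = 0.00301). Slc25a1, the citrate carrier, rose by 0.34 (SE 0.078), and Slc25a12 and Slc25a13, which exchange aspartate and glutamate, rose by 0.31 (SE 0.048) and 0.24 (SE 0.032), all past the threshold. The fifth, named after its values were seen, was Slc25a22, a glutamate carrier, at 0.16 (SE 0.05), and its call was lost without a filter, on the common sum, with a replicate block and without any 1 of the 6 libraries. Slc25a11, which exchanges 2-oxoglutarate and malate, did not pass, at 35.2 to 37.1 FPKM against 34.5 to 36.3. With a minimum of 5 FPKM only 3 carriers were called, since Slc25a10 and Slc25a22 were then not tested.

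Genes for the entry of pyruvate into the cycle were called in both directions. Of 12 genes tested, 3 rose, 1 fell and 8 did not pass, with a median of 0.11, where 43.3% of all genes tested were called. On the common sum 1 was called higher, Pdhb, and 2 lower, Pcx and the inhibitory kinase Pdk1, which was named after its values were seen. Pdhb, a subunit of the pyruvate dehydrogenase core, was at 27.5, 26.8 and 27.6 FPKM in the WT arm and at 35.0, 31.1 and 32.6 in the KO arm, and rose by 0.26 (SE 0.045, adjusted p = 0.00475 by limma). Mpc2, a subunit of the mitochondrial pyruvate carrier, rose by 0.24 (SE 0.068) and Pdp2, a phosphatase that switches the dehydrogenase on, by 0.19 (SE 0.051), with adjusted p of 0.0292 and 0.0244. Pcx, pyruvate carboxylase, which replenishes oxaloacetate, was at 10.4, 9.93 and 9.02 FPKM against 8.68, 8.11 and 7.63 and fell by 0.24 (SE 0.066, adjusted p = 0.0286). The call of Pdhb held under all 15 alternatives. That of Mpc2 was lost without a filter, on the common sum (0.24), with a replicate block (0.24) and without WT replicate 2, WT replicate 3, KO replicate 2 or KO replicate 3 (0.19 to 0.25), that of Pdp2 on the common sum (0.17), with a replicate block (0.19) and without WT replicate 2, KO replicate 1 or KO replicate 2 (0.16 to 0.19), and that of Pcx without a filter and without WT replicate 1, WT replicate 2, KO replicate 2 or KO replicate 3 (-0.24 to -0.20). The list held 2 calls with a replicate block, 2 without KO replicate 3, 1 without KO replicate 2, and 2 without WT replicate 2, where Pdp1 was called beside Pdhb.

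The assembly factors of succinate dehydrogenase did not pass. Of Sdhaf1, Sdhaf2, Sdhaf3 and Sdhaf4, 0 of 4 were called by limma, where 43.3% of all genes tested were called. None had an unadjusted p under 0.05, and the median was -0.02. Whether they differed from the subunits was not tested. Sdhaf1 was at 7.32, 6.96 and 6.70 FPKM against 7.11, 6.90 and 6.27. Sdhaf3 was at 1.45, 1.78 and 1.53 FPKM against 1.02, 1.32 and 1.43, with every KO library below every WT library and a difference of -0.20 (SE 0.095, adjusted p = 0.139 by limma). Sdhaf4 was at 8.10, 11.4 and 10.6 FPKM against 8.76, 11.5 and 11.4. Sucnr1, the cell surface receptor for succinate, was listed at 0 in all 6 libraries.

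Genes downstream of itaconate were described as they stood, since the metabolite itself was not measured. Of 4 genes of itaconate breakdown and export 2 were tested and 1 rose, with a median of 0.22, where 24.5% of all genes tested rose. Auh, a hydratase of the breakdown pathway, was at 1.76, 1.84 and 1.85 FPKM in the WT arm and at 2.29, 2.23 and 2.43 in the KO arm, and rose by 0.23 (SE 0.056, adjusted p = 0.0171 by limma). This call was lost without a filter on low values (0.23), with a replicate block (0.23), without WT replicate 1 (0.22) and without KO replicate 3 (0.21). Clybl, citramalyl-CoA lyase, was at 10.2, 8.99 and 10.2 FPKM against 11.4, 10.5 and 12.4 (0.21, SE 0.073, adjusted p = 0.0629) and was called with a replicate block and when KO replicate 2 was left out, the latter giving 2 calls in this list.

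Genes listed as responsive to itaconate or its derivatives were called in both directions. For some of them, such as Keap1, itaconate modifies the protein, which need not change the mRNA. Of 11 tested, 5 rose, 4 fell and 2 did not pass, with a median of -0.03, where 24.5% of all genes tested rose and 18.8% fell. Gclc, the catalytic subunit of glutathione synthesis and a target of Nrf2, was at 20.2, 19.0 and 19.9 FPKM in the WT arm and at 32.7, 32.0 and 32.4 in the KO arm, and rose by 0.69 (SE 0.032, adjusted p = 1.44e-05 by limma). Tfeb, a regulator of lysosome genes, was low throughout, at 0.593 to 1.02 FPKM against 1.54 to 1.95, and rose by 0.63 (SE 0.11, adjusted p = 0.00521), a difference that came to 1.1 with a pseudocount of 0.1 and to 0.96 on a common sum without mitochondrial genes. The other 3 that rose were Nfe2l2, which encodes Nrf2, Keap1 and Txnrd1, at 0.32 (SE 0.033), 0.23 (SE 0.051) and 0.12 (SE 0.024). Nfkbiz, which encodes the NF-kB cofactor IkB-zeta, was at 41.0, 41.3 and 41.4 FPKM against 4.24, 4.37 and 3.77 and fell by 3.04 on the log2 scale (SE 0.05, adjusted p = 2.47e-07). Atf3, a stress-responsive repressor of inflammatory genes, was at 94.1, 92.8 and 78.0 FPKM against 46.7, 40.0 and 46.7 and fell by 0.97 (SE 0.092, adjusted p = 0.000339). The other 2 that fell, Hmox1 and Gclm, are Nrf2 targets like Gclc, at -0.30 (SE 0.031) and -0.20 (SE 0.052), so the Nrf2 targets called did not share a direction. The Gclm call was lost without WT replicate 1, WT replicate 2, KO replicate 1 or KO replicate 3, and the Txnrd1 call on the common sum. Nfe2l2, Keap1, Txnrd1, Hmox1 and Gclm were named after their values were seen.

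Receptors and transcription factors that lie upstream of Acod1 in macrophages were lower or did not pass. Of 16 tested, 8 fell, 0 rose and 8 did not pass, with a median of -0.23, where 18.8% of all genes tested fell and 24.5% rose. At an unadjusted p under 0.05 by limma, 9 were lower and 1 was higher. Cd14, a co-receptor for lipopolysaccharide, was at 468, 482 and 472 FPKM in the WT arm and at 135, 136 and 138 in the KO arm, and fell by 1.79 (SE 0.019, adjusted p = 4.09e-08). Nfkb1, an NF-kB subunit precursor, was at 18, 19.4 and 18.7 FPKM against 7.61, 7.18 and 7.20 and fell by 1.24 (SE 0.042, adjusted p = 4.63e-06). Tlr2, a receptor for bacterial lipoproteins, fell by 1.18 (SE 0.056, adjusted p = 1.65e-05) and Cebpb, a transcription factor of myeloid cells, by 0.70 (SE 0.036, adjusted p = 2.51e-05). Each of these 4 had every KO library below every WT library, by differences much smaller than that of Acod1. Myd88 and Irf1 had every KO library above every WT library, at 0.06 and 0.18, and did not pass (adjusted p = 0.13 and 0.0786 by limma). The calls of Ticam1 and Rela among the 8 were both lost without a filter and without WT replicate 2, KO replicate 1 or KO replicate 2. These further genes were named after their values were seen. Ifnb1, interferon beta, was listed at 0 in 5 libraries and at 0.0837 FPKM in WT replicate 3.

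**Figure D4:**
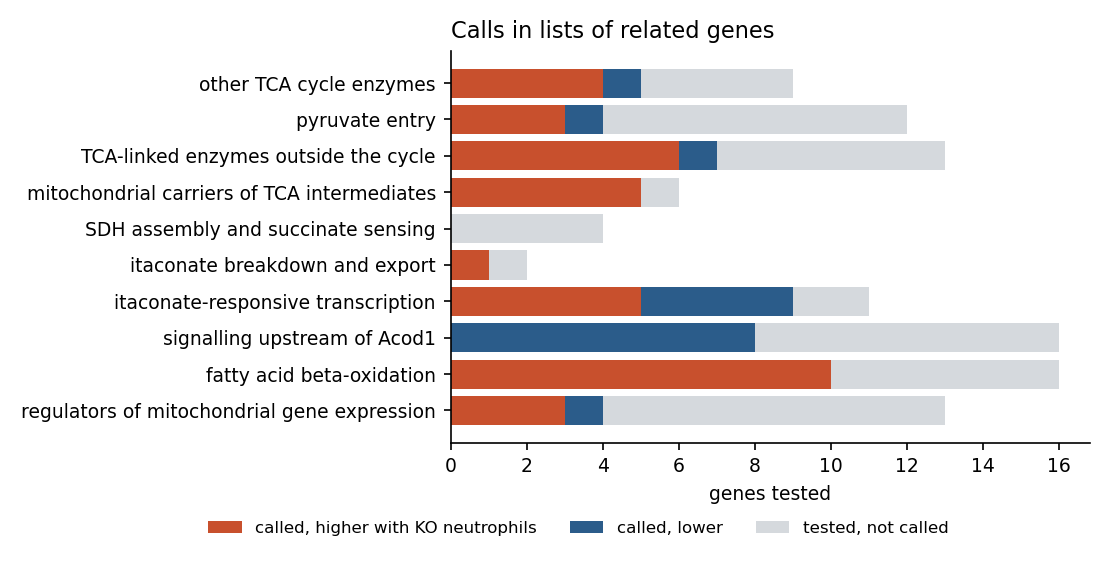
Genes tested in 10 lists related to itaconate and the TCA cycle, split into those called higher (red) or lower (blue) with KO neutrophils and those not called (grey). Carriers and fatty acid beta-oxidation hold calls in the higher direction, signalling upstream of Acod1 in the lower direction, and the itaconate-responsive list in both. Over all genes tested, 24.5% were called higher and 18.8% lower.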

How the data were processed

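Total RNA of microglia was sequenced in 6 libraries, 3 per neutrophil genotype. The authors deposited 1 table of FPKM values, 1 column per library, without pooling. The submitters' processing notes name fastp 0.17.1, HISAT2 2.1.0, DESeq2 1.18.1 and R 3.4.3. The quantification program, genome build and annotation are not given in the sources used here, and labels and methods name different library kits and sequencers. The FPKM values did not resolve into whole reads, so depth is unknown and no count test was run. With 3 libraries per arm, that number limits the precision.

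From the table, log2(FPKM + 1) was fitted with limma 3.58.1 (lmFit, eBayes with trend) in R 4.3.3 for KO minus WT neutrophils without covariates, over genes whose mean reached 1 FPKM. Benjamini-Hochberg adjustment ran over all 11395 genes. Adding 1 understates the change of low genes. The fit was tested on simulated data. Groups came from the sample titles. Symbols and positions came from GENCODE M21 (GRCm38), where 55154 of 55335 identifiers were found. Some genes of the lists are not reported here and were left out of the list counts. Nnt had 2 coding identifiers and was left out. Promoter stretches came from RefSeq (GRCm38.p6), with 8 of 9 members and 8 of 9 other cycle enzymes matched. Near copies were sought with BLAST 2.17.0 (at least 90% identity over 200 bases).

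The members and lists were chosen with earlier results of these data known. The genes named were the 9 members, Cd177, the 9 other cycle enzymes, up to 4 called genes with the largest absolute change of each further list (at least 1 FPKM in the higher arm), and the 5 genes with the smallest distance to Acod1. Alternatives were a pseudocount of 0.1, no filter, a minimum of 5 FPKM, a common sum (TPM scale), a common sum without mitochondrial genes, median centring, quantile normalization, no variance trend, a replicate block and leaving out each library. Replicate numbers did not pair the libraries (correlations of deviations between -0.075 and -0.005 for equal numbers).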

Additional observations from a re-analysis of the deposited data

How the results depend on the processing

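Over the 9 genes, the further cycle enzymes and the genes that the rule took from the lists, and 15 alternatives, 635 comparisons kept their call or lack of one (or, for the 9 genes without a test, moved by less than 1 SD), 53 lost the call, 1 gained it (Suclg2 with a replicate block) and 11 values of the 9 genes moved by more. None of these called differences changed sign. The genes nearest Acod1 and Cd177 were not recomputed. The log2 difference of Acod1 was -4.72 with a pseudocount of 0.1, -4.75 on the common sum and -4.70 on a common sum without mitochondrial genes, and -4.66 to -4.61 without one library. Between 3763 and 4931 genes were called over all alternatives, against 4930, and 4081 to 4229 without one library. Counts of calls in short lists moved most. Further cycle enzymes had 5 and 3 to 5 without one library. Pyruvate entry had 4 calls, 2 without a filter, 2 with a replicate block and 1 to 3 without one library. Itaconate breakdown and export had 1, 0 without a filter, 0 at a minimum of 5 FPKM and 0 to 2 without one library. Carriers had 5, 3 at a minimum of 5 FPKM and 4 without any one library. Regulators of mitochondrial gene expression had 4, 2 without a filter, 2 on the common sum, 2 without a variance trend, 2 with a replicate block and 1 to 3 without one library. At a minimum of 5 FPKM fewer genes were tested. Elsewhere the cause was not tested. Equal replicate numbers did not pair the libraries, and a replicate block gave 4212 calls over all genes. FPKM values hold no depth, so differences in genes near 0 carry an unknown counting error.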

Other observations

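Fatty acid beta-oxidation, the pathway that supplies mitochondria with acetyl-CoA other than from pyruvate, was also measured. Of 16 genes tested by limma, 10 rose in the KO arm, 0 fell (0 also at an unadjusted p under 0.05) and 6 did not pass. Over all genes tested 24.5% rose and 18.8% fell. The median log2 difference was 0.22 against 0.02 over all genes. Cpt1a, the step that admits long-chain fatty acids to mitochondria, was at 2.96, 2.92 and 2.82 FPKM in the WT arm and at 6.61, 7.52 and 7.87 in the KO arm, and rose by 1.09 (SE 0.067, adjusted p = 5.16e-05 by limma). Every KO library lay above every WT library. Acaa2, the thiolase of the last step, was at 20.1, 20.2 and 18.7 FPKM against 34.3, 31.9 and 34.5 and rose by 0.74 (SE 0.046). Hadh and Acadm, dehydrogenases of the pathway, rose by 0.68 (SE 0.055) and 0.63 (SE 0.038), all past the threshold.

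Regulators of mitochondrial gene expression were called in both directions. Of 13 tested, 3 rose, 1 fell and 9 did not pass, with a median of 0.02, where 43.3% of all genes tested were called. Polg, the mitochondrial DNA polymerase, was at 4.46, 3.8 and 3.71 FPKM in the WT arm and at 5.14, 5.57 and 5.45 in the KO arm, and rose by 0.36 (SE 0.071, adjusted p = 0.00799 by limma). Tfb2m, a mitochondrial transcription factor, rose by 0.18 (SE 0.057, adjusted p = 0.0438), Gabpa, an activator of respiratory genes, by 0.09 (SE 0.03, adjusted p = 0.0451) and Twnk, the mitochondrial helicase, fell by 0.13 (SE 0.035, adjusted p = 0.0256). Of 15 alternatives, the call was lost in 11 for Tfb2m, in 10 for Gabpa and in 6 for Twnk, the replicate block among them for each, and on the common sum Tfb2m came to 0.14 and Gabpa to 0.05. The list held 2 calls with a replicate block, 2 without WT replicate 1, WT replicate 3 or KO replicate 1, and 1 without WT replicate 2 or KO replicate 3. Polg was called in each of these, and where there were 2 the other was a gene outside the 4, Pprc1 with the block and Gabpb1, Tfb1m and Polrmt without those libraries in the order given. Ppargc1a, a coactivator of mitochondrial biogenesis, was listed at 0 in 5 libraries and at 0.00804 FPKM in KO replicate 2.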
